A study of Mus musculus with 12 samples.

Results

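Described here are 9 genes that answer to the JAK-STAT pathway or carry its signal, namely the feedback inhibitors Socs1, Socs2, Socs3 and Cish, the target kinases Pim1 and Pim2, and the transcription factors Stat3, Stat5a and Stat5b. They were taken by symbol, as all 15 probes of these 9 genes among the 45281 probes of an Illumina BeadChip, a 1-colour array. A probe was kept where its detection p-value was under 0.05 on at least 3 of 12 arrays, which left 13 member probes of 8 genes among 19274 probes of all genes. The only Stat5b probe (ILMN_2746194) was undetected on every array, with scanner signals between -17.67 and 10. A second Socs2 probe (ILMN_1250749) was also undetected throughout, between -19.86 and -1.552, and neither was tested. The series holds 19057 named genes, of which 10315 had a kept probe.

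In JAK-STAT signalling a cytokine receptor activates Janus kinases, which phosphorylate STAT proteins, and these enter the nucleus and bind DNA. STAT5 is the main carrier of IL-3 signals in myeloid and mast cells, and STAT3 of IL-6 signals. Their targets include Socs genes and Cish, whose proteins bind receptors or kinases and dampen the same pathway, and Pim genes, whose kinases promote survival and growth.

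The series asks how BCOR, a transcriptional corepressor, acts in blood cells. All 12 samples were bone marrow cells with the Bcor Fl/Y genotype, taken at 3 months of age, in which loxP sites flank Bcor exons 9 and 10. The groups were CD34+ Cre, CD34+ control, BM Cre and BM control, with 3 arrays each, where Cre cells received a Cre retrovirus and control cells an empty retrovirus. Thus the controls carried the floxed allele too, and every culture received puromycin for selection, 20% FBS, SCF at 50 ng/ml, IL-6 at 25 ng/ml and IL-3 at 10 ng/ml. Both of the interleukins, and therefore the inputs to STAT5 and STAT3, were present in every group. CD34+ cells were sorted from such cultures, and BM cells were not sorted. Each CD34+ arm held 2 repeats of marrow number 2 and 1 array of marrow number 4, so the repeats are not independent marrows. BM arrays carry repeat numbers 1 to 3, and whether each came from its own animal is not stated, so every p-value reflects only how much these samples vary, which may be technical.

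Cish and Socs3 are the members whose start region holds the letters TTCNNNGAA, which join the TTC and GAA bases that STAT proteins are known to bind. These regions are shown because they hold these letters, in RefSeq on build GRCm38.p6, from 250 bases before the gene start to 50 after it. Sequence outside these windows was not searched. Of the 9 genes, 8 matched the table, in 11 windows, and Socs2 is named only. The motif reads the same on both strands, and capitals mark each match. In Cish 2 matches began at the start base itself and 11 bases downstream, with TTCCTGGAA first and TTCTTGGAA second. Socs3 held TTCTTAGAA, beginning 154 bases before the start. The motif stands in 8.30% of 32851 promoters of this length and at least 2 matches in 0.457%. A match is a description and by itself does not show that a STAT protein binds there, which was not tested.
Cish promoter, chr9:107296409-107296708, plus strand: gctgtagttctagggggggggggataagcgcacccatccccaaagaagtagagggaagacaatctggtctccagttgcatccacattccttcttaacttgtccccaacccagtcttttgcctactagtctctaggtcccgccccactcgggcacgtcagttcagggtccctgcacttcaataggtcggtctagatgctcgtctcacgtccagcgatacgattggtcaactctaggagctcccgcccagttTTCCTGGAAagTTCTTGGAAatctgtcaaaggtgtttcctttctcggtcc
Socs3 promoter, chr11:117969317-117969616, minus strand: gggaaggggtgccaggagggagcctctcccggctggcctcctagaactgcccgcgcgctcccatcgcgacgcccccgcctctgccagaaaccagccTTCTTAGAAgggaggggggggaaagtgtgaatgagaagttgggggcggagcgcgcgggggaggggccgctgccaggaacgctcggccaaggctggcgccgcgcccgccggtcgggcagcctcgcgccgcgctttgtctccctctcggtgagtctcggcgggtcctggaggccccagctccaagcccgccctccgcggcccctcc

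Between 15571 and 16372 probes were detected on CD34+ arrays and between 16985 and 17742 on BM arrays, and precision is set by how few arrays there were. Bcor itself fell with Cre in BM cells, by 1.15 ± 0.24 on the log2 scale (45.0% of the control level, adjusted p = 0.00643). In CD34+ cells it differed by -0.48 ± 0.24 (adjusted p = 0.459), with 8.93 and 9.08 in Cre against 9.80 and 9.69 in control for the repeats of marrow number 2, and 9.95 in Cre against 9.91 in control for number 4. Where its probe lies relative to exons 9 and 10 is not given in the sources used here. The sort marker Cd34 did not separate the control cells, at 10.26 ± 0.19 in CD34+ control and 10.17 ± 0.16 in BM control (SD, n = 3 each, adjusted p = 0.819). It averaged 10.07 ± 0.49 in CD34+ Cre and 9.05 ± 0.38 in BM Cre (adjusted p = 0.00489). For Cre minus control Cd34 differed by -1.12 ± 0.25 in BM cells (adjusted p = 0.00922) and by -0.19 ± 0.25 in CD34+ cells (adjusted p = 0.813). Markers of other cells moved with Cre in the BM cultures. All 12 of 12 neutrophil and precursor markers rose there, with a summed linear level of 188000 to 235000 on BM Cre arrays and 7500 to 11600 on BM control arrays, where Elane, Prtn3 and Mmp8 were undetected. Eosinophil markers rose in 5 of 6 cases, summing to 107000 to 120000 in BM Cre against 1780 to 13400 in BM control. Mast cell markers passed upward in 2 and downward in 4 of 12 cases, summing to 280000 to 315000 in BM Cre against 325000 to 380000 in BM control. The remaining lists are counted over markers with a kept probe. Of these, 3 of 5 monocyte (8 listed), 3 of 4 erythroid (7 listed) and 2 of 2 T and NK cell markers (5 listed) rose. The latter were Nkg7 and Thy1, while Cd3e, Cd3d and Cd3g had no kept probe. Of 5 megakaryocyte markers 2 rose and 2 fell, as did 2 and 2 of 4 stem cell markers (7 listed). No B cell marker was kept. In CD34+ cells 1 megakaryocyte marker passed with Cre and no other listed marker did. The part of these cells in the results was not tested, and in bulk RNA fewer cells of a type and less RNA per cell cannot be told apart.

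Levels below are log2 normalised intensities, differences are log2 differences with the SE of the fit, and adjusted p-values come from a limma model over all kept probes.

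In CD34+ cells no member passed the test for Cre against control. The 13 probes were read against a background of 0.617% of all kept probes called (119 of 19274, or 365 with the replicate number as a block). Over the 8 genes, each at its brightest probe, differences ran from -0.27 to 0.37 with a median of -0.08, beside 0.01 over all 10315 genes. Ranges of the Cre and control arrays overlapped for all 13 probes, while 13.9% of all kept probes had ranges apart. At an unadjusted level the lowest p among the members was 0.210, for Pim1.

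Among the feedback inhibitors in CD34+ cells, Socs2 differed between the marrow numbers by more than between the viruses. Socs2, an inhibitor of growth hormone and cytokine signals, read 12.30, 12.32 and 13.31 in CD34+ Cre against 12.52, 12.51 and 13.41 in CD34+ control, the third value of each being marrow number 4. Marrow number 4 lay above the mean of number 2 by 1.00 in Cre cells and 0.90 in control cells, while the repeats of number 2 lay 0.02 and 0.01 apart. Cre minus control for Socs2 was -0.17 ± 0.30 (adjusted p = 0.871). Socs3, which blocks receptors of the IL-6 family, read 9.79, 9.87 and 9.54 in CD34+ Cre against 10.36, 10.47 and 7.87 in CD34+ control. The control array of marrow number 4 was the lowest of all 12 arrays, and the difference was -0.58 in number 2 and 1.67 in number 4, or 0.17 ± 0.52 in all (95% interval -0.97 to 1.31, adjusted p = 0.939). Socs1, an inhibitor of Janus kinases, read 7.18, 7.14 and 7.90 in CD34+ Cre against 7.74, 7.96 and 7.33 in CD34+ control. Its difference was -0.69 in number 2 and 0.57 in number 4, so the marrows pointed opposite ways. With 1 array per arm in number 4, these differences between the marrows were not tested. Cish, an inhibitor of STAT5 signalling, read 13.66, 13.77 and 14.33 in CD34+ Cre against 13.69, 13.72 and 13.92 in CD34+ control, a difference of 0.14 ± 0.36 (95% interval -0.63 to 0.92, adjusted p = 0.917). 

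**Figure D1:**
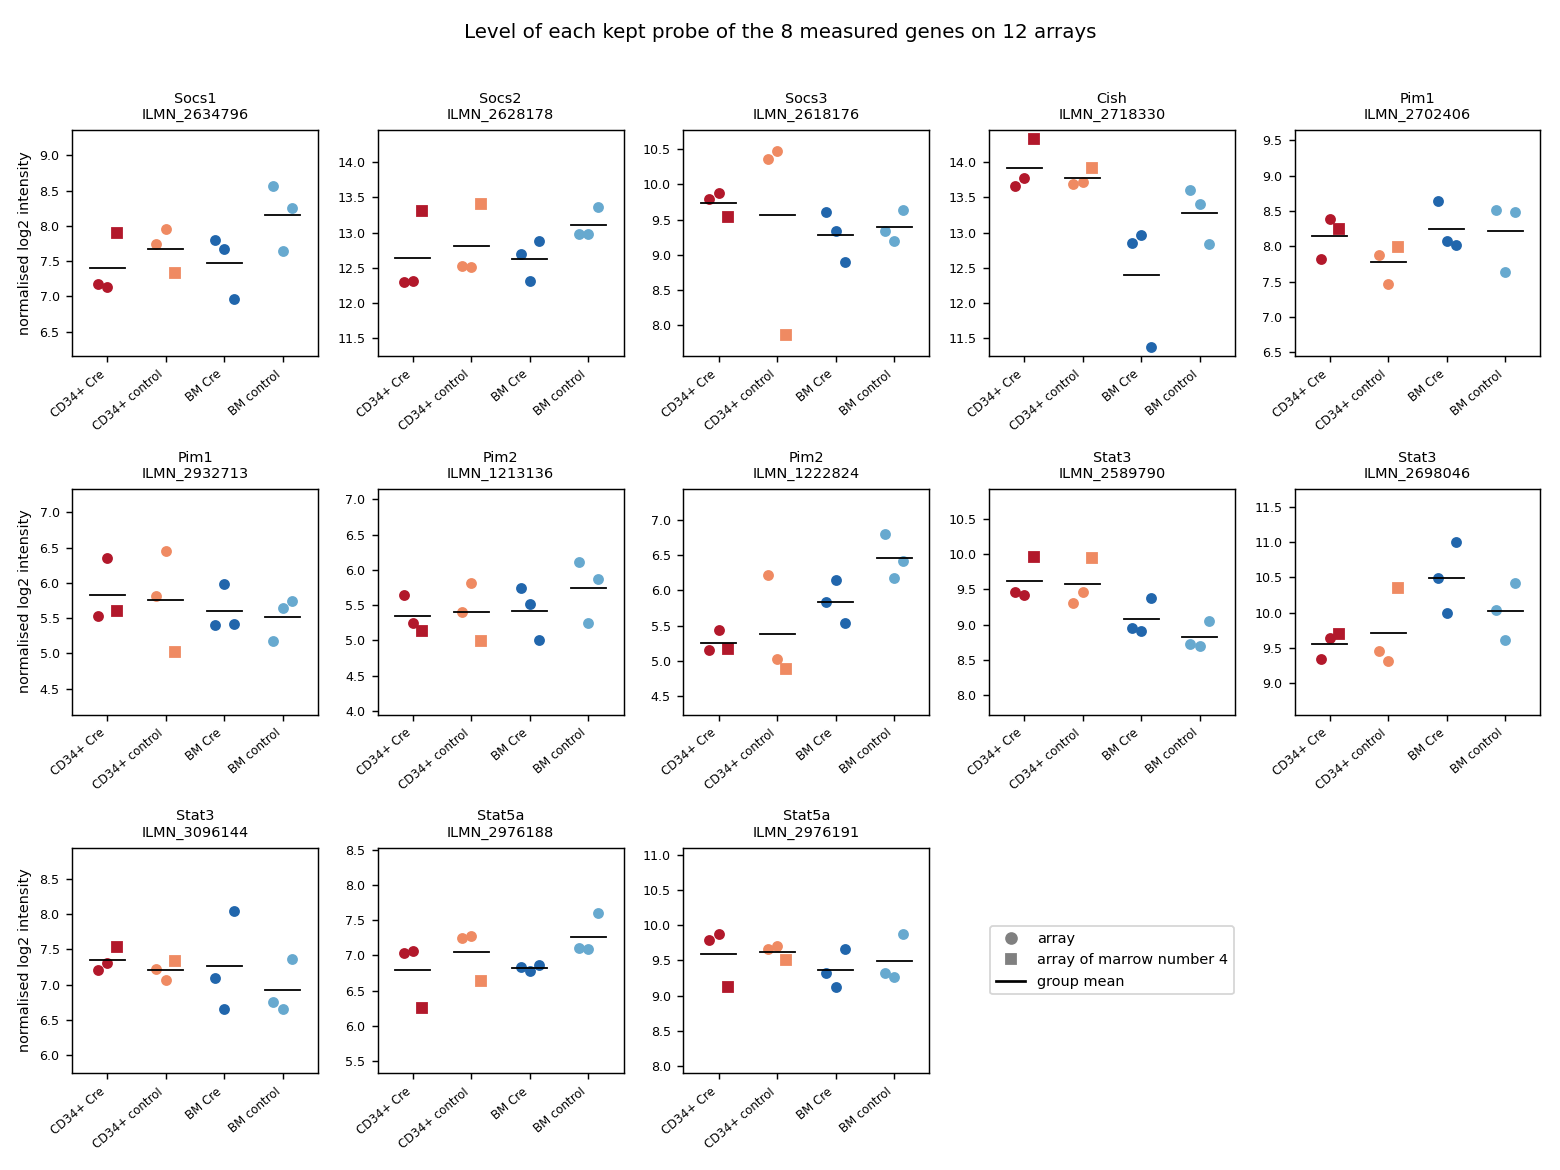
Log2 normalised intensity (y axis, each panel with its own range of equal span) of the 13 kept probes of the 8 measured genes, by group (x axis); points are arrays, squares are arrays of marrow number 4 and lines are group means. Cish stands on every CD34+ Cre array (13.66 to 14.33) above every BM Cre array (11.38 to 12.97).

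The kinases and STATs in CD34+ cells also stayed within the array spread. Pim1, read by its brighter probe ILMN_2702406, gave 7.82, 8.39 and 8.24 in CD34+ Cre against 7.88, 7.46 and 7.99 in CD34+ control, a difference of 0.37 ± 0.28 (adjusted p = 0.642). Pim2 lay near the background, where its brighter probe ILMN_1222824 was undetected on all 3 CD34+ Cre arrays and detected on 1 of 3 CD34+ control arrays. Stat3 at its brightest probe ILMN_2698046 differed by -0.14 ± 0.31 and Stat5a at ILMN_2976191 by -0.03 ± 0.23. For Stat5a the 95% interval was -0.54 to 0.48.

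In BM cells, where 14.0% of all kept probes passed with Cre (2706 of 19274, or 4269 with the replicate number as a block), none of the 13 member probes did. The gene differences ran from -0.88 to 0.46 with a median of -0.30, beside -0.07 over all genes. Cish had the lowest value. It read 12.85, 12.97 and 11.38 in BM Cre against 13.61, 13.40 and 12.84 in BM control, so the groups overlapped and the third Cre array was the lowest of the 12 arrays. The difference of -0.88 ± 0.36 (95% interval -1.66 to -0.11) put Cish at 54.2% of the control level, with an unadjusted p of 0.0287 and an adjusted p of 0.129. Same-numbered repeats deviated together in both arms, and within these pairs Cish differed by -0.76, -0.43 and -1.46. With the replicate number as a block its adjusted p was 0.00678 (SE 0.18). Without the third BM Cre array the difference was -0.37 (adjusted p = 0.321). That fit kept the same-numbered control array, which at 12.84 was the lowest control, so it does not leave out a whole pair.

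Socs2 in BM cells showed a smaller and more even difference. It read 12.70, 12.31 and 12.88 in BM Cre against 12.98, 12.98 and 13.36 in BM control, every Cre array below every control array. The difference was -0.47 ± 0.30 (adjusted p = 0.350), and with the replicate number as a block its adjusted p was 0.00966 (SE 0.10). The SE of 0.30 pools the spread of all groups, which includes the gap between the marrow numbers in CD34+ cells. With the marrow number, which BM arrays lack, as a block the adjusted p was 0.0333 (SE 0.14). Without both arrays of marrow number 4 it was 0.0363 (SE 0.15), and with a random block for each marrow in each arm 0.326 (SE 0.27). Pim2 at ILMN_1222824 read 5.84, 6.14 and 5.54 in BM Cre against 6.80, 6.18 and 6.41 in BM control (-0.62 ± 0.32, adjusted p = 0.236). Its dimmer probe ILMN_1213136 gave -0.32 ± 0.28 with overlapping ranges. For Stat5a the dimmer probe ILMN_2976188 read 6.84, 6.78 and 6.86 in BM Cre against 7.11, 7.09 and 7.60 in BM control (-0.44 ± 0.26, adjusted p = 0.325), while the brighter probe gave -0.12 ± 0.23 with overlapping ranges. The Socs2 probe, Pim2 ILMN_1222824 and Stat5a ILMN_2976188 were the 3 of 13 member probes whose BM ranges lay apart, where 38.7% of all kept probes did.

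The other members overlapped between BM Cre and BM control. Socs1 read 7.80, 7.67 and 6.96 in BM Cre against 8.56, 7.64 and 8.25 in BM control (-0.67 ± 0.31, adjusted p = 0.194). Socs3 differed by -0.11 ± 0.52 and Pim1 by 0.03 ± 0.28. All 3 Stat3 probes had a positive difference, of 0.46 ± 0.31 at ILMN_2698046 (adjusted p = 0.389), 0.33 ± 0.31 at ILMN_3096144 and 0.25 ± 0.22 at ILMN_2589790. At ILMN_2698046 the arrays read 10.49, 9.99 and 10.99 in BM Cre against 10.04, 9.61 and 10.42 in BM control. The neutrophil and eosinophil marker sums given above separate these same BM arrays.

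**Figure D2:**
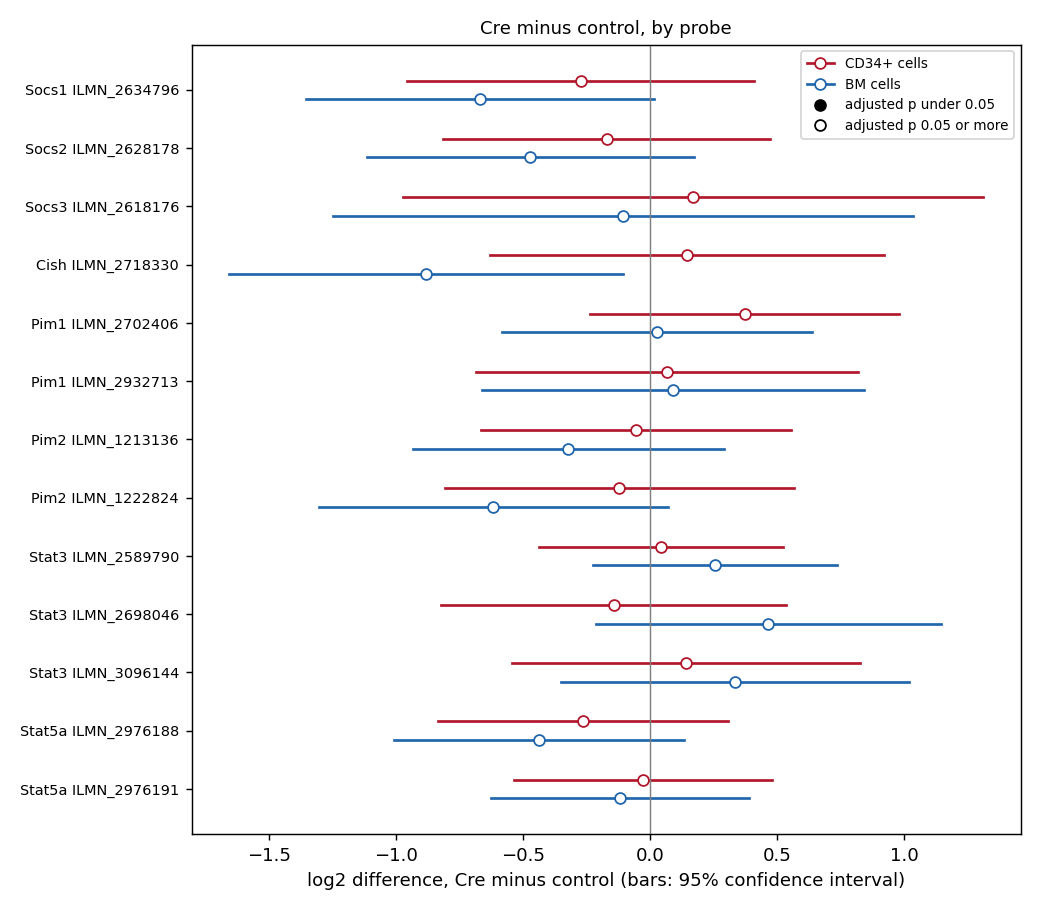
Log2 difference of Cre minus control (x axis) for each of the 13 kept member probes (rows), with 95% intervals from the model, in CD34+ and in BM cells, all open since no adjusted p was under 0.05. Every CD34+ interval spans 0, and in BM cells the Cish interval (-1.66 to -0.11) lies below 0 although its adjusted p is 0.129.

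The difference between the Cre effects of the populations was tested directly, as CD34+ minus BM. No member probe passed, where 4.75% of all kept probes did (916 of 19274, or 1498 with the replicate number as a block). Cish had the lowest p, with a difference of effects of 1.03 ± 0.50 (unadjusted p = 0.0636, adjusted p = 0.364). With the replicate number as a block its adjusted p was 0.0372 (SE 0.25), the only 1 of 27 other settings that called it. It was 0.243 with the marrow number as a block (SE 0.48). A random block for each marrow in each arm gave 0.533 (SE 0.54). The remaining genes ran from -0.61 at Stat3 to 0.50 at Pim2.

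CD34+ cells differed from BM cells at few members, although 49.1% of all kept probes passed in Cre cells and 39.9% in control cells. In Cre cells 2 of 13 member probes passed, Cish upward and 1 Stat3 probe downward. In control cells 2 of 13 passed, a Stat3 probe upward and Pim2 downward. Cish was higher in CD34+ Cre than in BM Cre by 1.52 ± 0.36 (95% interval 0.75 to 2.29, 2.87-fold, adjusted p = 0.00375), with every CD34+ array above every BM array. The call held in all 27 other settings, with differences of 1.01 to 2.09 and adjusted p-values of at most 0.0394. Marker sums of these groups also differed. Neutrophil and precursor markers summed to 32300 to 36100 in CD34+ Cre against 188000 to 235000 in BM Cre. Eosinophil markers summed to 154 to 179 against 107000 to 120000, and mast cell markers to 236000 to 318000 against 280000 to 315000. The part of these cells in the Cish difference was not tested. In control cells Cish differed by 0.49 ± 0.36 (adjusted p = 0.297), and the arrays again did not overlap. Median scaling of the arrays gave 1.02 (adjusted p = 0.0258). In order of mean level the Cish groups were CD34+ Cre at 13.92 ± 0.36, CD34+ control at 13.78 ± 0.13, BM control at 13.28 ± 0.40 and BM Cre at 12.40 ± 0.89 (SD, n = 3 each). Of these neighbours only CD34+ control and BM control had ranges apart.

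**Figure D3:**
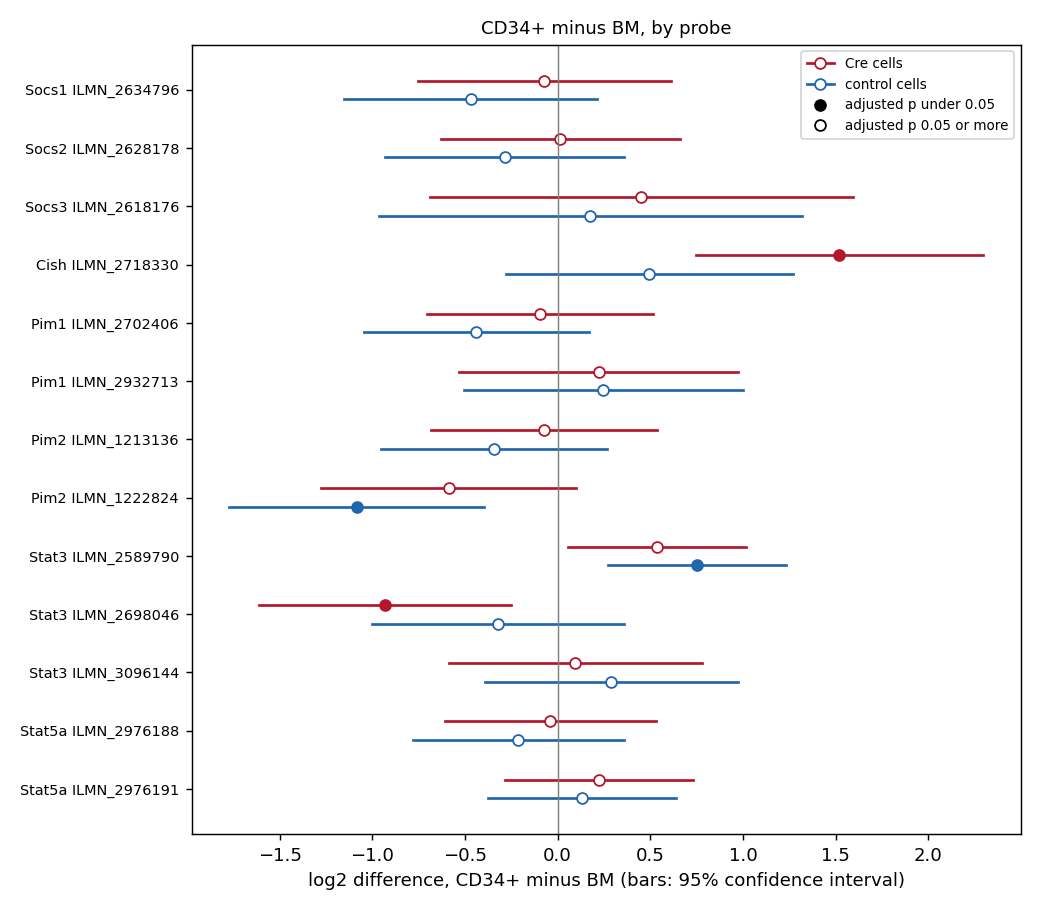
Log2 difference of CD34+ minus BM cells (x axis) for the 13 kept member probes (rows), with 95% intervals, in Cre and in control cells, filled at an adjusted p under 0.05. Cish in Cre cells (1.52) lies to the right, while the Stat3 probes fall on both sides of 0.

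The probes of Stat3 differed in direction between the populations. ILMN_2698046 was lower in CD34+ Cre than in BM Cre (-0.93 ± 0.31, adjusted p = 0.0262). It read 9.34, 9.64 and 9.70 in CD34+ Cre against 10.49, 9.99 and 10.99 in BM Cre. In control cells the same probe differed by -0.32 ± 0.31 (adjusted p = 0.448). ILMN_2589790 was higher in CD34+ control than in BM control, by 0.75 ± 0.22 (adjusted p = 0.0169), and read 9.31, 9.46 and 9.95 in CD34+ control against 8.72, 8.69 and 9.05 in BM control. In Cre cells it differed by 0.54 ± 0.22 (adjusted p = 0.0610), with every CD34+ array above every BM array. This difference was called in 5 of 25 other settings, among them median scaling (adjusted p = 0.0244). ILMN_3096144 differed by 0.10 ± 0.31 in Cre cells and 0.29 ± 0.31 in control cells. Both Stat3 calls depended on the setting. The ILMN_2698046 call in Cre cells was lost with median scaling (adjusted p = 0.0521), with the repeats of marrow number 2 averaged (0.0695), with a random block for each marrow in each arm (0.0548) and in the authors' table (0.113), and the mean of the 3 Stat3 probes differed by -0.10 (0.777). The ILMN_2589790 call in control cells was lost in the authors' table (0.0797). In Cre cells ILMN_2698046 had an adjusted p of 0.0838 without the first CD34+ Cre array, 0.0628 without the first BM Cre array and 0.108 without the third. In control cells ILMN_2589790 had 0.0602 without the third CD34+ control array, and 0.0578 and 0.0596 without the first and second BM control arrays.

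Within each array the log2 ratio of ILMN_2589790 to ILMN_2698046 set CD34+ arrays apart from BM arrays. It ran from -0.22 to 0.26 in CD34+ Cre and from -1.63 to -1.07 in BM Cre. Control cells gave -0.40 to 0.14 in CD34+ control and -1.37 to -0.92 in BM control. For ILMN_3096144 over ILMN_2698046 the ratio was -2.33 to -2.13 in CD34+ Cre and -3.40 to -2.95 in BM Cre, while CD34+ control (-3.01 to -2.22) and BM control (-3.30 to -2.95) overlapped. These ratios were chosen after the values were seen and are a description without a test. Where the probes lie in the Stat3 transcripts is not given in the sources used here, so which transcripts each reads is unknown.

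**Figure D4:**
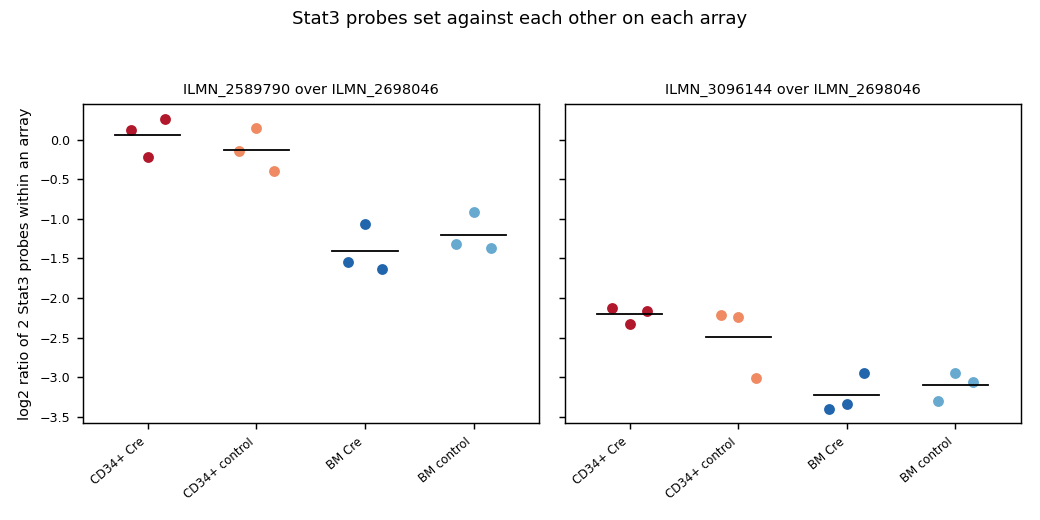
Log2 ratio within an array of Stat3 probes ILMN_2589790 and ILMN_3096144 to probe ILMN_2698046 (y axis), by group (x axis), with 1 point per array and lines at group means. For ILMN_2589790 all CD34+ arrays lie at -0.40 or above and all BM arrays at -0.92 or below.

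Pim2 at ILMN_1222824 was lower in CD34+ control than in BM control (-1.08 ± 0.32, adjusted p = 0.0162), with 6.22, 5.03 and 4.88 in CD34+ control against 6.80, 6.18 and 6.41 in BM control. It was detected on 1 of 3 CD34+ control arrays and 3 of 3 BM control arrays, so the size depends on the offset of 16. With a random block for each marrow in each arm, which allows for the repeats of marrow number 2, the adjusted p was 0.134 (SE 0.56), and the authors' table gave 0.104. It was 0.0691 without the second CD34+ control array, 0.0615 without the third and 0.0673 without the first BM control array. Without both arrays of marrow number 4 it was 0.0522. In Cre cells, where Pim2 was undetected on every CD34+ array, CD34+ minus BM did not pass (-0.59 ± 0.32, adjusted p = 0.144). The model's interval ran from -1.27 to 0.10 and so includes no difference. With the dim arrays raised, BM Cre was estimated at 1.26-fold CD34+ Cre, which ignores sampling error and is no lower limit. Here and for later bounds, each dim array takes the higher of the probe's own signal and the lowest detected signal. The second probe ILMN_1213136 did not pass in either comparison.

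Among the other inhibitors the populations overlapped. Socs1 differed by -0.07 ± 0.31 in Cre cells and -0.47 ± 0.31 in control cells. Socs2 differed by 0.02 ± 0.30 in Cre cells and -0.29 ± 0.30 in control cells (adjusted p = 0.479 in control cells). Median scaling turned the Socs2 control difference to 0.14. Socs3 differed by 0.45 ± 0.52 in Cre cells and 0.18 ± 0.52 in control cells (adjusted p = 0.823 in control cells). Without the low CD34+ control array of marrow number 4 the control difference was 1.03 (adjusted p = 0.00328 in limma). That fit leaves only repeats of marrow number 2 in CD34+ control, so its p-value treats repeats of a single marrow as replicates. With a random block for each marrow in each arm the control difference was -0.18 (adjusted p = 0.838).

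Other genes of the pathway were read from 5 lists, with 63 distinct measured genes at their brightest kept probe. In CD34+ cells none of the 63 passed with Cre, where 0.717% of all genes did. In BM cells 5 rose and 10 fell, against 15.9% of all genes called, and the list median was -0.15. A further 10 listed genes had no kept probe. Of 7 kinases and other STATs, Stat4, which carries IL-12 signals, fell by 1.07 on the log2 scale (SE 0.18, adjusted p = 0.00174). Among 19 other inhibitors 1 rose and 3 fell. Asb2, a SOCS box protein of a ubiquitin ligase, rose by 2.60 ± 0.76 (adjusted p = 0.0379), while Socs5 fell by 1.52 (SE 0.28, adjusted p = 0.00305), Spred1, an inhibitor of Ras signalling, by 1.49 (SE 0.21, adjusted p = 4.07e-04) and Pias3, an inhibitor of STAT3, by 0.61 (SE 0.18, adjusted p = 0.0456). In the receptor list 3 of 16 rose and 4 fell. Csf3r, the G-CSF receptor, rose by 3.61 ± 0.26 but was detected on 1 of 3 control arrays, and Ifngr1, an interferon gamma receptor chain, rose by 1.81 ± 0.17. Il4ra, the IL-4 receptor chain, fell by 1.43 (SE 0.30, adjusted p = 0.00627). Csf2rb2, the IL-3 receptor beta chain of mice, fell by 0.80 (SE 0.16, adjusted p = 0.00432), and its near-identical relative Csf2rb could share its signal. None of 5 ligands passed. Of 17 other targets 1 rose and 2 fell. Id1, an inhibitor of differentiation factors, rose by 4.84 ± 0.58 (adjusted p = 1.16e-04, detected on 1 of 3 control arrays), the survival gene Bcl2l1 fell by 0.72 (SE 0.18, adjusted p = 0.0176) and the cell cycle inhibitor Cdkn1a by 0.64 (SE 0.20, adjusted p = 0.0499). The neutrophil and eosinophil marker sums moved with the same comparison.

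**Figure D5:**
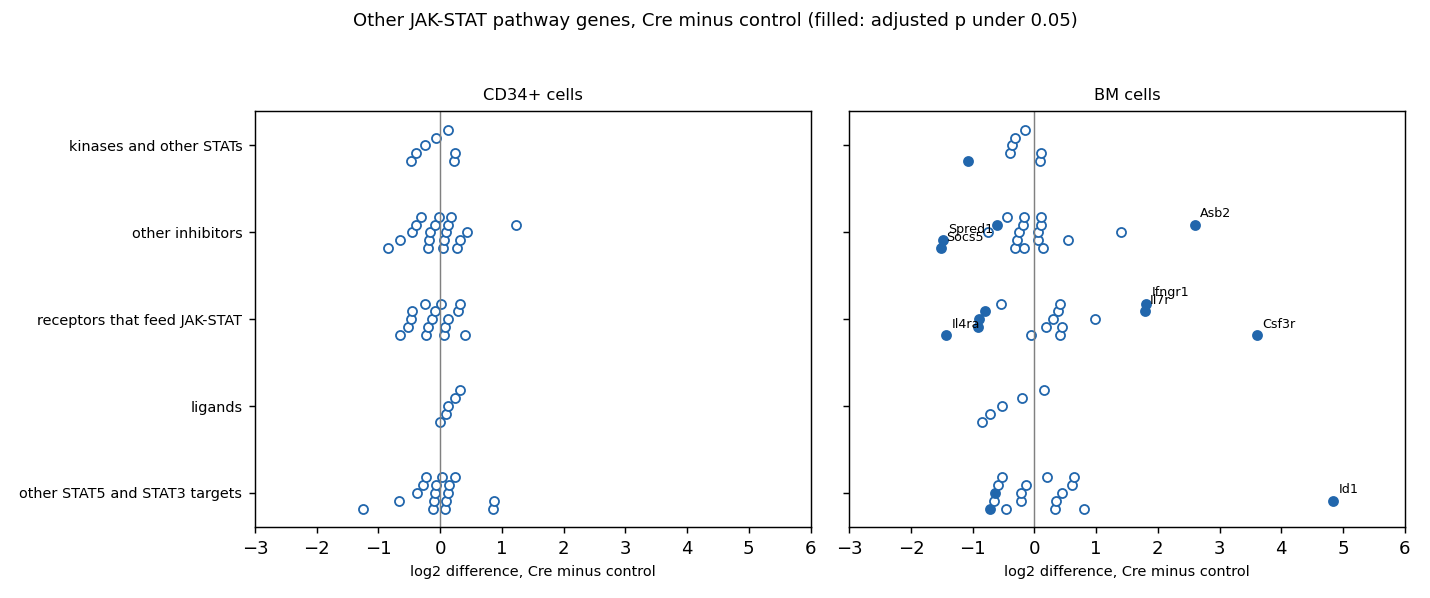
Log2 difference of Cre minus control (x axis) for the measured genes of 5 pathway lists (rows), in CD34+ and BM cells, with 1 point per gene, filled at an adjusted p under 0.05; points are spread vertically within a list to be seen, and labels name some of the larger called differences. No point is filled in CD34+ cells, and in BM cells 5 rose and 10 fell.

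The difference of effects passed for 5 of the 63, against 5.56% of all genes. It was 1.00 at Stat4 and 1.28 at Spred1, and -1.40 at Ifngr1, -3.52 at Csf3r and -3.96 at Id1. As no member passed in a Cre comparison, the rule that would have named genes of a like pattern named none.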

How the data were processed

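Per the file headers, the authors deposited a scanner table with an intensity and a detection p-value per probe and array. From its values, this deposited intensity is linear, background subtracted (lowest -32.7) and not scaled between arrays. The authors' value table, also deposited, holds a linear intensity with a floor of 24, which is the median of every column; its method, centring and direction of scaling are not given in the sources used here. The submitters' processing notes name RMA without version or role.

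The scanner intensities were corrected with normexp from the detection p-values, offset by 16, quantile normalised and put on the log2 scale by neqc of limma 3.58.1 in R 4.3.3. Between 34.4% and 39.2% of probes were detected per array. Symbols came from the platform annotation and RefSeq tables (GRCm38.p6), which gave 34885 probes 1 symbol and 18 probes several, and left 10378 unnamed. A limma model of 4 group means over 12 arrays (8 residual and 4.12 prior degrees of freedom, intensity trend) tested 5 comparisons, with Benjamini-Hochberg adjustment over all 19274 kept probes, a threshold of 0.05 and 95% intervals. It was also run on simulated levels, with known changes put only into CD34+ Cre and errors drawn independently for each array. That check does not cover repeats that share a marrow.

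Members and lists were chosen with earlier results of these data known. Named genes were all members, plus up to 4 called genes per list by smallest p, plus, for a called member, genes of like pattern. Deviations of same-numbered Cre and control arrays correlated at 0.349, 0.327 and 0.488 in CD34+ cells, whose labels also share a marrow number, and at 0.121, 0.404 and 0.353 in BM cells. The crossed repeats of marrow number 2 correlated at 0.336 and 0.349, so in CD34+ cells the pairing is by marrow. The main model used no pairing. Only in the alternative with the replicate number as a block were the numbers taken to pair Cre with control arrays within each population. The alternatives covered background correction, normalisation, offset, filter, probes per gene, spread, arrays in the fit, repeats, blocks, the authors' table and each array left out.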

Additional observations from a re-analysis of the deposited data

How the results depend on the processing

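Counts here are of member genes at their brightest probe. Cre minus control in CD34+ cells called 0 genes in all 28 alternatives. In BM cells the count was 0, but 2 with the replicate number as a block (Cish and Socs2), and 1 with the marrow number as a block or without both arrays of marrow number 4 (Socs2), the last chosen after seeing the data. The difference of effects called 0, but 1 (Cish) with the replicate number as a block. CD34+ minus BM in Cre cells called 2, but 1 (Cish) with median scaling, the mean of a gene's probes, repeats averaged, marrow number as a random block or the authors' table, 3 without marrow number 4, and 1 to 3 with each array left out (3 without the first CD34+ control array, where Pim2 was added). In control cells it called 1 (Pim2), but 2 with median scaling (Cish and Pim2) and 3 with the replicate number as a block (Socs2, Cish and Pim2). Without marrow number 4 it called 2, Socs2 and Socs3, and Pim2 was lost. It called 0 with the random block or the authors' table, and 0 to 1 with each array left out. Without the third CD34+ control array the 1 call was Socs3 in place of Pim2. Leaving out that array or marrow number 4 left only repeats of marrow number 2 in CD34+ control. The cause of these moves was not tested. The replicate number block, set within each population, also gave adjusted p-values of 0.0422 for Cish and 0.0413 for Socs2 in control cells and 0.00535 for Stat3 ILMN_2589790 in Cre cells. It takes the spread between repeats out of the error, so for CD34+ minus BM, where no number pairs the samples, these p-values are too small. With the random block they were 0.336, 0.742 and 0.0628. The replicate number block changed no other call.

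Over all kept probes, CD34+ Cre calls ran from 14 (CD34+ arrays alone) to 1816 (without the third CD34+ Cre array) and 2059 (without marrow number 4), with 627 under the marrow block, 21 with repeats averaged and 23 with the random block. BM calls ran from 1260 (authors' table) to 5023 (without marrow number 4), and those of the difference of effects from 296 to 1923 in the same settings. The authors' table gave 5636 calls between populations in Cre cells and 4641 in control cells. Median scaling put the median of all probes between populations at 0.37 in Cre cells and 0.30 in control cells, from 0.12 and 0.05, so differences are relative to that. Probes near the background, such as those of Pim2, are limited by signal. Slide as a block was not run, since no slide was given.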

Other observations

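Among the surrounding pathway genes, in Cre cells 19 of the 63 listed genes were higher in CD34+ cells and 21 lower. That was 63.5% of them, above the 49.3% called among all genes. In control cells 7 were higher and 11 lower, or 28.6% of them, below the 38.6% called among all genes. Jak1, a kinase of many cytokine receptors, was lower in CD34+ cells (-3.09 ± 0.37 in Cre cells, -3.49 ± 0.37 in control cells, log2). Jak2, the kinase of the IL-3 receptor, was lower too (-1.22 ± 0.20 in Cre cells, -0.65 ± 0.20 in control cells), while Jak3 was higher by 1.03 ± 0.26 in Cre cells. The inhibitors Cblb (-2.55 ± 0.22 in Cre cells, -2.35 ± 0.22 in control cells), Socs6 (-1.62 ± 0.17 and -1.64 ± 0.17) and the phosphatase Ptprc (-2.65 ± 0.31 and -2.75 ± 0.31) were lower in both arms, Ptprc being detected on 2 of 3 CD34+ Cre arrays. Other inhibitors went the other way, with 5 of 19 higher and 6 lower in Cre cells and 2 higher and 4 lower in control cells. Spred1 was higher by 1.26 ± 0.21 in Cre cells and Socs4 by 0.61 ± 0.18 in control cells. In Cre cells the mean level of Socs4 was likewise higher in CD34+ cells, at 9.58 against 8.62 in BM cells.

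Among ligands, Il6 was lower in CD34+ cells (-1.76 ± 0.25 in Cre cells, -2.28 ± 0.25 in control cells), and Lif was higher by 2.33 ± 0.39 and 1.35 ± 0.39. In Cre cells the receptor Csf3r (-3.35 ± 0.26) was lower in CD34+ cells, with detection on 1 of 3 CD34+ arrays, as was Ifngr1 (-1.43 ± 0.17). In control cells the IL-4 receptor chain Il4ra was lower (-1.89 ± 0.30), the IL-3 receptor alpha chain Il3ra was higher by 0.93 ± 0.25, and Il6ra, undetected on BM control arrays, was at least 1.31-fold higher. Of the targets, Id2 was lower in both arms (-0.98 ± 0.15 in Cre cells, -1.21 ± 0.15 in control cells), and the G1 cyclin Ccnd1 was higher by 3.70 ± 0.62 in control cells. Gzmb, undetected on BM arrays, was at least 1.55-fold higher in Cre cells and 1.91-fold in control cells. All these passed at an adjusted p under 0.05 in limma. The labels do not say whether CD34+ and BM arrays were handled together, so sorting and any other difference between the sets cannot be told apart. In the deposited value table, ranks above the floor followed the scanner signal at 0.999 or more on CD34+ arrays and at 0.993 to 0.995 on BM arrays.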
